A study of Mus musculus with 18 samples.

Results

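The BTG/TOB genes Btg1, Btg2, Btg3, Tob1 and Tob2 and the immediate early response genes Ier2, Ier3 and Ier5 were followed in the brains of mice given glyphosate. These 8 genes are rows of a table of 27179 genes, taken by their Entrez identifiers. Btg2 and Ier2 were selected on their falling dose slope in these same mice, and the others are their named relatives in the same 2 families. The dose values of Btg2 and Ier2 are therefore a description, and nothing is read from whether those 2 genes were called on dose.

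Wild-type C57BL/6J mice of both sexes received glyphosate, a herbicide, by daily oral gavage for 14 days from an age of 4 months. The vehicle group held 5 mice (3 females, 2 males), the 125 mg/kg group 5 (2 females, 3 males), the 250 mg/kg group 4 (1 female, 3 males) and the 500 mg/kg group 4 (2 females, 2 males). The vehicle was the same neutralised sodium hydroxide solution without glyphosate. Values are listed in the order of mice G1, G5, G9, G15 and G18 for vehicle, G25, G29, G34, G40 and G45 for 125, G49, G64, G66 and G71 for 250, and G4, G79, G87 and G90 for 500 mg/kg. A hemisphere of each mouse gave 1 ribosomal RNA-depleted library, so the 18 libraries are 18 mice. In such bulk tissue, fewer cells of a type and less RNA per cell cannot be told apart.

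BTG/TOB proteins slow the cell cycle. They bind the CNOT7 and CNOT8 deadenylases of the CCR4-NOT complex and so shorten the poly(A) tails of messenger RNAs. Immediate early genes are transcribed within minutes of a stimulus without new protein synthesis, and in neurons they follow synaptic activity through the transcription factors CREB and SRF. Btg2 belongs to both worlds, since it is a BTG gene, a p53 target and an early response gene, and its protein is known from neural progenitors that are about to divide into neurons.

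Upstream sequences of 4 members are shown so that Btg2 can be set beside its relatives for the elements known from early genes. RefSeq promoters of build GRCm38.p6 were matched for 7 of the 8 genes, and Ier2 had no entry. Each line gives the 250 bases before a listed transcription start of a gene, 5′ to 3′ on the gene's strand. Capitals mark cAMP response elements (CRE, TGACGTCA, or its short form TGACG contained in it), CCAAT boxes and TATA boxes (TATAAA) on either strand. Btg2 (chr1:134079156-134079405, minus strand) is the member with the largest dose slope. Btg1 (chr10:96616751-96617000, plus strand) and Tob1 (chr11:94211204-94211453, plus strand) are relatives with the string TATAAA. Other forms of the TATA box were not searched, so a string such as tatataag in the Ier5 line stays in lower case. The annotated Tob1 gene begins at base 94209842, so its window precedes a start inside the gene and is not upstream of the whole gene. Ier5 (chr1:155099637-155099886, minus strand) is the member with the widest range.
Btg2: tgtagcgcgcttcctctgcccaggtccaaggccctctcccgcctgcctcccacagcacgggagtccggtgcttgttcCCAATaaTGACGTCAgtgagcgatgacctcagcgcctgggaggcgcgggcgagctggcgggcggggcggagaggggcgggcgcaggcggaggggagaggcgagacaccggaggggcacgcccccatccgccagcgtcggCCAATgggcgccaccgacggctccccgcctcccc
Btg1: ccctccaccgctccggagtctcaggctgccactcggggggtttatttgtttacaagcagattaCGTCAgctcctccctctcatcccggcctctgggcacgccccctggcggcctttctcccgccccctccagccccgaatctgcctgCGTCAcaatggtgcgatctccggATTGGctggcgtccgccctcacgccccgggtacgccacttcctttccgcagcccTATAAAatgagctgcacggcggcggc
Tob1: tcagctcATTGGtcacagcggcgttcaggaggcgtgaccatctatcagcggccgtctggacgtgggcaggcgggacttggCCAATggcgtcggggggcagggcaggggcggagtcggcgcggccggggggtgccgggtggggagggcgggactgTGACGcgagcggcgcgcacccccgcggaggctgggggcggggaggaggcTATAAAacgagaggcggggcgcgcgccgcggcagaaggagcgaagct
Ier5: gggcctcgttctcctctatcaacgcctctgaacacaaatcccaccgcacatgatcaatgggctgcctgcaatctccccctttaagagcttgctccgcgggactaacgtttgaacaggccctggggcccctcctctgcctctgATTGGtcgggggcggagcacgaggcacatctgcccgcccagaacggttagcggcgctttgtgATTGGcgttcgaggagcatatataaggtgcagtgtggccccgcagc

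Btg2 was the only 1 of the 7 matched members with a full CRE, 166 bases before the start, an element that 1.55% of 32851 promoters hold in this window. The short form TGACG stood in Btg1, Btg2 and Tob1, against 17.8% of all promoters. TATAAA stood in Btg1 and Tob1, against 12.4% of promoters. A GC box (GGGCGG) stood in 7 of 7, against 32.7%, and CCAAT in 6 of 7, against 33.9%. No CArG box of SRF (in 1.47% of promoters), AP-1 site TGACTCA (4.46%) or EGR site GCGGGGGCG (2.57%) was matched in any window of the 7 genes. Members were counted per gene, and Btg3 has windows before different starts, while the shares are per promoter. The member windows held 54.4% (Ier3) to 75.2% (Btg3) G and C bases, and the base content of all promoters was not compared. A match is a string in the sequence and was not shown to be a bound site.

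Libraries held between 3948096 and 11732885 counts (median 7789800), and every count column was labelled with one flow cell and lane. The 500 mg/kg mouse G4 and vehicle mouse G9, both female, stood apart: their median correlation with the other libraries was 0.945 in G4 and 0.946 in G9, against 0.962 to 0.976 for the other 16. Their 18 glutamatergic neuron markers summed to 821 CPM in G4 and 739 CPM in G9, and Fezf2 was at 0 in G9. The summed marker level ranged from 739 to 5633 CPM (median 4826) in vehicle mice, 2678 to 6498 (median 6148) in the 125 group, 2133 to 4972 (median 4171) in the 250 group and 821 to 3238 (median 2551) in the 500 group. On the dose regression, 17 of the 18 markers had a negative slope with a median of -1.02, while 0 passed. The 12 oligodendrocyte markers had a median slope of 0.71, with 0 passed by edgeR, 3 by DESeq2 and 11 at an unadjusted p under 0.05, a threshold met by 13.2% of all genes. Of 8 tested midbrain dopamine neuron markers 3 rose (median slope 1.98), and of 8 tested hypothalamic markers 1 rose (median slope 3.26). The part of this difference in tissue makeup in the values of the 8 genes was not tested beyond the fits with a marker covariate and without G4 and G9. The study's introduction speaks of hippocampal tissue and its methods of single hemispheres, and cerebellar and striatal markers were present in every library. Their summed levels differed widely between mice. Cerebellar markers ranged from 197 CPM in G29 to 4072 CPM in G49, and striatal markers from 405 CPM in G25 to 4749 CPM in G29.

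All 8 genes were counted in all 18 mice and all passed the filter on low counts. Levels are CPM, counts scaled to the same library total, after TMM normalization, and only levels per kilobase of exon are compared between genes. In vehicle mice Tob1 was highest at 45.1 ± 7.07 CPM per kb (SD, n = 5). Btg2 (34.4 ± 13.6) and Btg1 (29.7 ± 11.4) came next and did not differ beyond their spread. Ier2 had 17.6 ± 6.74, Ier5 16.7 ± 5.87, Tob2 14.5 ± 2.62 and Ier3 11.4 ± 1.43 CPM per kb, and neighbours in this order were within their spread of each other. The order was another one in the 500 mg/kg mice, where Tob1 had 33.7 ± 1.51, Btg1 18.3 ± 10.7, Tob2 15.4 ± 3.09, Ier5 12.2 ± 6.80, Ier3 11.6 ± 2.97, Btg2 9.30 ± 1.91 and Ier2 6.06 ± 1.71 CPM per kb (SD, n = 4). Btg3 was lowest in both, at 1.47 ± 0.451 CPM per kb in 500 mg/kg mice and 1.90 ± 0.773 in vehicle mice, and had only 14 to 99 reads in a library, so its values are the least precise. Over all doses Ier5 varied most between mice, with an 8.71-fold range of CPM, followed by Btg2 with 7.49-fold, while Tob2 varied least with 1.75-fold. Btg4, Btg1b and Btg1c, further relatives outside the 8, had 0 counts in the 18 mice.

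Btg2, which restrains the G1 to S transition and promotes messenger RNA deadenylation, was lowest in the mice with the highest dose. Btg2 had 42.8, 144, 79.5, 103 and 103 CPM in the vehicle mice G1, G5, G9, G15 and G18. It had 69.9, 58.9, 76.0, 71.3 and 26.2 CPM in the 125 group, and 43.9, 33.8, 60.5 and 36.6 CPM in the 250 group. The 500 mg/kg mice G4, G79, G87 and G90 had 19.3, 28.5, 23.3 and 31.0 CPM. All 4 values at 500 mg/kg lay below every vehicle value, which was so for Btg2 alone among the 8 genes and for 0.933% of the 15863 genes tested. Btg2 was chosen for its fall in these same values, so this separation is no separate support. Vehicle male G1 was the low one of its group and G5 the high one, and the middle doses overlapped vehicle through G1 alone. Means were 94.5 ± 37.2 CPM in vehicle mice, 60.5 ± 20.1 in the 125 group, 43.7 ± 11.998 in the 250 group and 25.5 ± 5.25 in the 500 group (SD, n = 5, 5, 4 and 4). The level and its spread were thus both smallest at the top dose. The fitted slope was -1.86 on the log2 scale per 500 mg/kg (SE 0.31, 95% interval -2.51 to -1.21).

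Ier2, an immediate early gene whose protein acts in the nucleus, was also lowest at the top dose, but 1 vehicle mouse overlapped. Ier2 had 9.55, 30.7, 31.7, 36.0 and 26.3 CPM in vehicle mice G1, G5, G9, G15 and G18. It had 25.9, 19.0, 21.0, 20.3 and 14.2 CPM in the 125 group, and 21.95, 13.5, 16.6 and 8.16 CPM in the 250 group. The 500 mg/kg mice G4, G79, G87 and G90 had 6.55, 9.72, 8.02 and 12.6 CPM. Vehicle male G1 lay inside the 500 mg/kg range, and the other 4 vehicle mice lay above all 8 mice of the upper 2 doses. Means were 26.8 ± 10.3 CPM in vehicle mice, 20.1 ± 4.19 in the 125 group, 15.1 ± 5.77 in the 250 group and 9.23 ± 2.60 in the 500 group. The slope was -1.47 per 500 mg/kg (SE 0.29, 95% interval -2.10 to -0.84).

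In the regression on dose with sex as a covariate, Btg2 and Ier2 were 2 of the 7 genes called falling, 0.0441% of the genes tested, at an edgeR quasi-likelihood adjusted p under 0.05. That is the contrast which chose them. Just outside the threshold for falling genes, the next early gene was Fos with an adjusted p of 0.0580. Set against vehicle alone, the 500 mg/kg mice differed by -1.89 for Btg2 and -1.46 for Ier2 on the log2 scale. Neither was called there by edgeR (adjusted p = 0.0603 and 0.105, in that order), while DESeq2 called both. On the dose regression, Btg2 was no longer among the called genes without G4 (slope -1.76), without vehicle mouse G5 (slope -1.62) or without G87 (slope -1.85). Ier2 left them without any 1 of G4, G5, G15, G25, G34, G40, G79 or G87, with slopes between -1.46 and -1.27. Without G4 and G9 together the slopes were -1.79 for Btg2 and -1.26 for Ier2, and neither was called. With the glutamatergic marker level as a covariate they were -1.71 and -1.41, and Btg2 alone was called. With the number in the mouse tags as a block they were -1.59 and -1.11, and 0 of the 46 genes called in all remained.

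**Figure D1:**
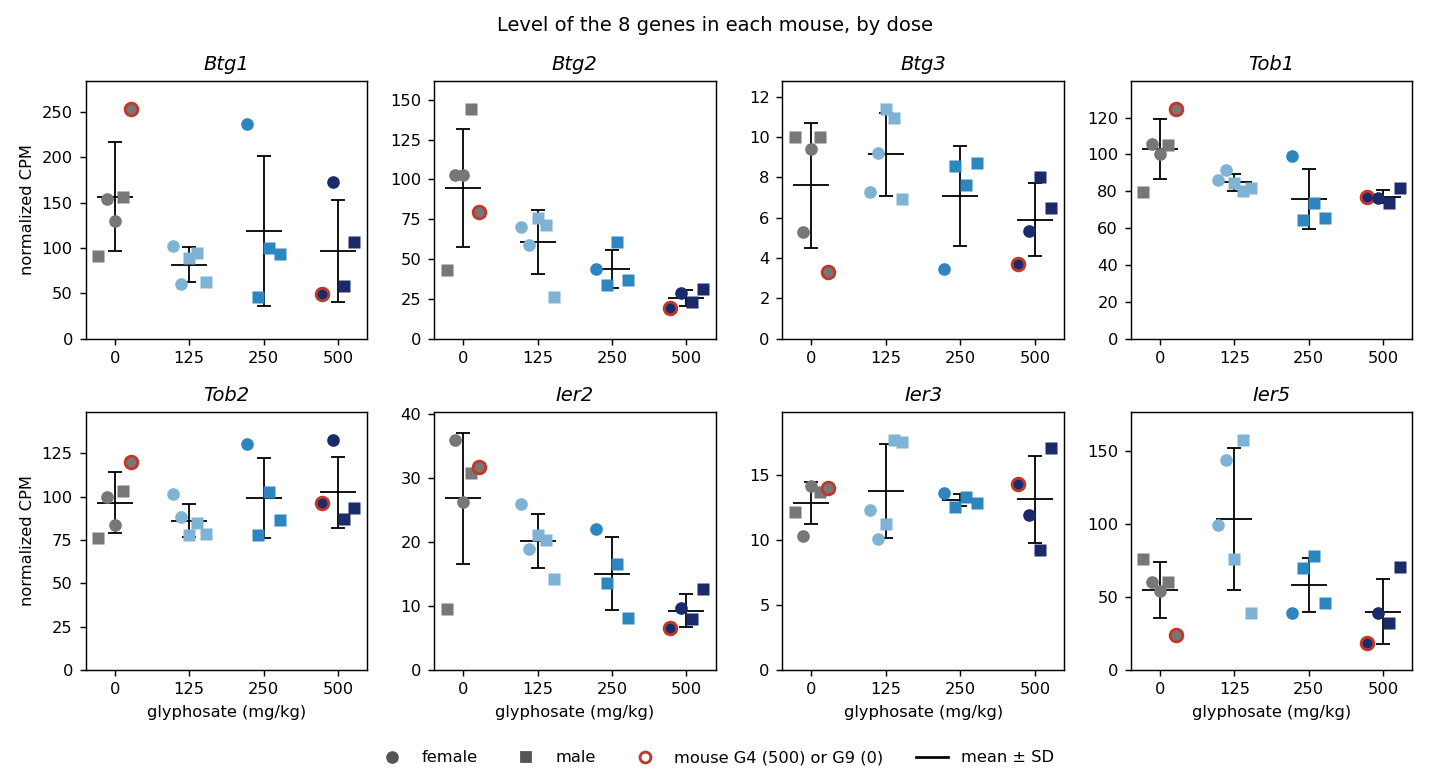
Normalized CPM of the 8 genes (vertical axes, each from 0) in each mouse by glyphosate dose in mg/kg, with 0 for vehicle. Circles are females, squares are males, mice G4 and G9 are ringed in red, and bars give the mean ± SD of each group. For Btg2 the 4 mice in the 500 group lie between 19.3 and 31.0 CPM, below all vehicle mice, and for Ier5 the mice in the 125 group reach 158 CPM.

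The other BTG/TOB members did not pass on dose. Between 500 mg/kg and vehicle, 0 of the 6 relatives were called by edgeR or DESeq2, where 3 genes (0.0189%) were called by edgeR over all genes. At an unadjusted p under 0.05 there was 1 relative, Tob1, beside 1836 of all 15863 genes tested. Tob1, an antiproliferative protein that binds SMADs and deadenylases, had 79.6, 105, 125, 106 and 100 CPM in vehicle mice G1, G5, G9, G15 and G18. It had 86.2, 91.5, 84.5, 80.1 and 81.8 CPM in the 125 group and 99.4, 64.4, 73.9 and 65.3 CPM in the 250 group. Values at 500 mg/kg were 76.8, 76.4, 73.5 and 81.8 CPM. At the top dose 3 of the 4 values lay below every vehicle value, the exception being G90, and the 4 spanned a narrow range. At 250 mg/kg it was likewise 3 of the 4 values, the exception being G49. Means were 103 ± 16.2 CPM in vehicle mice, 84.8 ± 4.42 in the 125 group, 75.7 ± 16.3 in the 250 group and 77.1 ± 3.46 in the 500 group. The slope was -0.37 (SE 0.12, edgeR adjusted p = 0.188).

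Btg1, which like Btg2 recruits deadenylases and keeps cells quiescent, varied widely within groups. It ranged from 90.9 to 254 CPM in vehicle mice, 60.6 to 103 in the 125 group, 45.7 to 237 in the 250 group and 49.5 to 173 in the 500 group. The highest value of each group was a female, G9, G25, G49 and G79. The lowest was also a female at 125 and 500 mg/kg, G29 and G4, and a male in the vehicle and 250 mg/kg groups, G1 and G64. Among treated mice, 3 of the 5 mice in the 125 group, 1 of the 4 in the 250 group and 2 of the 4 in the 500 group were below every vehicle mouse. Its slope was -0.45 (SE 0.37, edgeR adjusted p = 0.638), and -0.05 without G4 and G9.

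Btg3, the family's distant member, ranged from 3.32 to 10.01 CPM in vehicle mice, 6.91 to 11.4 in the 125 group, 3.45 to 8.72 in the 250 group and 3.73 to 8.02 in the 500 group. The groups overlapped throughout, and the slope was -0.54 (SE 0.27, edgeR adjusted p = 0.395). Tob2, the closest relative of Tob1, was the only member with a positive slope, 0.16 (SE 0.13, edgeR adjusted p = 0.644). Its means were 96.6 ± 17.4 CPM in vehicle mice, 86.2 ± 9.69 in the 125 group, 99.5 ± 23.1 in the 250 group and 103 ± 20.6 in the 500 group. The 95% interval of the Tob2 slope was -0.12 to 0.45.

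Ier3, a stress-induced regulator of cell survival, had group means between 12.8 and 13.8 CPM. They were 12.8 ± 1.62 CPM in vehicle mice, 13.8 ± 3.59 in the 125 group, 13.0 ± 0.463 in the 250 group and 13.1 ± 3.36 in the 500 group. The slope was -0.01 with a 95% interval of -0.39 to 0.37 (edgeR adjusted p = 0.990). Of the 8 members, 7 had a negative slope and their median was -0.50, beside 48.8% negative slopes and a median of 0.01 over all genes tested. The 2 members chosen for their slope are among those 7.

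**Figure D2:**
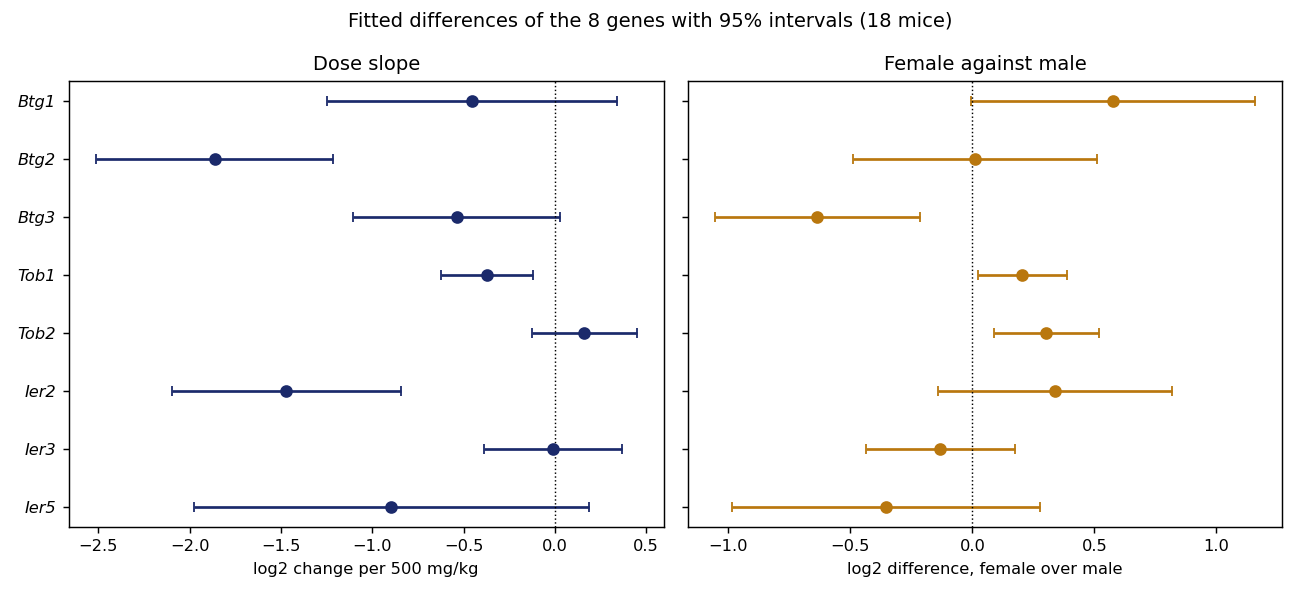
Fitted dose slope (left, log2 change per 500 mg/kg) and sex difference (right, log2, female over male) of the 8 genes over 18 mice, with 95% intervals. The slope intervals of Btg2, Ier2 and Tob1 lie below 0, and for sex those of Tob1 and Tob2 lie above 0 and that of Btg3 below it. Btg2 and Ier2 were chosen for this slope. The Tob1 slope and the sex differences did not pass after adjustment over all genes.

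Ier5, an immediate early gene whose protein works with the phosphatase PP2A and the heat shock factor HSF1, had its highest levels at 125 mg/kg. Ier5 had 75.9, 60.0, 23.6, 60.4 and 53.8 CPM in vehicle mice G1, G5, G9, G15 and G18. Mice G25, G29, G34, G40 and G45 at 125 mg/kg had 99.1, 144, 76.0, 158 and 39.2 CPM. It had 39.2, 69.6, 78.4 and 46.1 CPM in the 250 group, and 18.1, 39.1, 31.8 and 70.7 CPM in the 500 group. Of the 5 mice given 125 mg/kg, 4 exceeded the whole vehicle group, G34 only barely, and G45 lay within the vehicle range. Means were 54.7 ± 19.2 CPM in vehicle mice, 103 ± 48.8 in the 125 group, 58.3 ± 18.7 in the 250 group and 39.9 ± 22.3 in the 500 group.

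The difference of Ier5 between 125 mg/kg and vehicle was 0.90 (SE 0.37, edgeR adjusted p = 0.400). No member was called at 125 mg/kg, where the whole table had 0 edgeR calls (0%), 1773 genes at an unadjusted p under 0.05 and 35 DESeq2 calls. Btg1, Btg2, Tob1 and Ier5 were among those 1773 genes. At 250 mg/kg there were likewise 0 calls (0%), with 596 genes at an unadjusted p under 0.05 and 0 DESeq2 calls. Btg2, Tob1 and Ier2 were among those 596, and Btg2 and Ier2 had been chosen on dose. The departure of Ier5 from a straight line gave an edgeR adjusted p of 0.338, where 1 gene (0.0063%) was called over all genes. Its slope over all doses was -0.90 (SE 0.51, edgeR adjusted p = 0.462). With the 3 dose terms tested together, 0 of the 6 relatives were called by edgeR or DESeq2, where edgeR called 7 genes in all (0.0441%). Btg2 and Ier2 were not called there by edgeR either (adjusted p = 0.113 and 0.153, in that order), while DESeq2 called both. At an unadjusted p under 0.05 there were 2 relatives, Tob1 and Ier5, beside 2372 of all 15863 genes tested. Ier5l, a paralogue of Ier5 outside the 8, also had its highest mean at 125 mg/kg, 32.1 ± 6.54 CPM, against 20.6 ± 5.81 CPM in vehicle mice.

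The level of Ier5 went with that of glutamatergic neuron markers between mice. This relation was examined after the levels had been seen. Because G4 and G9 form a separate low group on these markers, it was computed in the other 16 mice, after removing the dose group and sex means. Ier5 had a Pearson r of 0.86 (permutation p = 5e-05, adjusted over the 8 members 0.0004) and a Spearman rho of 0.79 (permutation p = 0.00046, adjusted 0.00368). Without G45 and G49, the 2 mice farthest from the median marker level, r was 0.71. For the other 7 members r lay between -0.39 and 0.53, and none passed after adjustment. Btg3, with r = 0.53 (permutation p = 0.034, adjusted 0.136), had r = -0.14 without the same 2 mice. Btg2 had r = 0.43 (permutation p = 0.0966, adjusted 0.258) and 0.01 without them, and Ier2 had r = 0.13 (permutation p = 0.627, adjusted 0.717). With the marker level as a covariate the dose slope of Ier5 was -0.11, while those of Btg2 and Ier2 were as given above. Marker and member levels come from the same libraries. The permutation did not allow for the dose group and sex means removed, so its p-values tend to be too small.

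The sexes were compared at equal dose, a contrast that did not choose the members. Btg3 was lower and Tob2, Btg1 and Tob1 were higher in females at an unadjusted p under 0.05, but 0 of the 8 passed after adjustment over all genes by edgeR or DESeq2. At that unadjusted threshold the members numbered 4 of 8, where 7.99% of all genes tested did, and these members covary between mice as described next. Over all genes tested, 7 were called (0.0441%).

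Btg3 averaged 5.88 ± 2.48 CPM in females and 8.87 ± 1.68 CPM in males (SD, n = 8 and 10). Its log2 difference was -0.64 (SE 0.19, edgeR adjusted p = 0.622). Tob2 averaged 107 ± 18.9 CPM in females and 86.9 ± 10.1 CPM in males, a difference of 0.30 (SE 0.10, edgeR adjusted p = 0.622). Both ranges overlapped between the sexes. Tob1 averaged 95.2 ± 16.1 CPM in females and 78.997 ± 11.5 CPM in males (0.20, SE 0.08, edgeR adjusted p = 0.622). Btg1 averaged 145 ± 75.1 CPM in females and 89.6 ± 30.8 CPM in males (0.58, SE 0.27, edgeR adjusted p = 0.622). The 95% interval of the Btg1 difference, -0.005 to 1.16, includes 0 although its unadjusted p was under 0.05. All intervals given here were built with fewer degrees of freedom than the tests used. The SD was smaller in the 10 males than in the 8 females for 6 of the 8 members, Btg2 and Ier3 being the exceptions, which was not tested.

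For Btg2 the sex difference was 0.01 (95% interval -0.49 to 0.51), for Ier2 0.34 (-0.14 to 0.82), for Ier3 -0.13 (-0.44 to 0.17) and for Ier5 -0.35 (-0.99 to 0.28). None of these 4 intervals excluded 0. The 18 glutamatergic markers had a median difference of -0.54 between females and males, with 16 negative, and G4 and G9 are both females. Without G4 and G9 the differences were -0.47 for Btg3, 0.32 for Tob2, 0.64 for Btg1 and 0.21 for Tob1. Without G49, the only female given 250 mg/kg, that of Btg1 was 0.33.

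The dose slope did not pass as different between the sexes for any member, nor for any gene (0 of 15863 by edgeR, 0%, with 262 at an unadjusted p under 0.05 and 0 by DESeq2). The slope in females minus that in males was -0.27 for Btg2 (95% interval -1.55 to 1.01) and -0.82 for Ier2 (-2.01 to 0.37). These intervals are wide, and the 250 mg/kg group holds 1 female.

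Members covaried between mice of one dose and sex. Residuals of log2(CPM + 1) after the dose group and sex means were compared for the 28 pairs. By Pearson r, 6 pairs passed at a permutation p adjusted over the 28, all 6 positive. The permutation shuffled the residuals freely and did not allow for the means removed, so its p-values tend to be too small. Whether the pairs nearest the threshold would pass with that allowance was not tested. The share of passing pairs among other genes was not computed, so whether this covariation is particular to these genes cannot be told. Btg1 and Tob2 had the highest r, 0.85 (permutation p = 3e-05, adjusted 0.00084, rho 0.88). It was 0.81 without G4 and G64, the 2 mice farthest from the median of Btg1. Btg2 and Ier2 followed with r = 0.76 (permutation p = 0.00028, adjusted 0.00392, rho 0.71), and 0.69 without G1 and G45. Tob1 and Ier2 had r = 0.72 (permutation p = 0.00074, adjusted 0.00691, rho 0.75). These 3 pairs also passed in the 16 mice without G4 and G9, with r of 0.81, 0.77 and 0.73.

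The other 3 pairs did not pass in those 16 mice. Tob1 with Tob2 and Btg1 with Tob1 each had r = 0.64 (permutation adjusted p = 0.0269 each), and 0.55 and 0.58 without G4 and G9, in that order. Btg3 with Ier5 had r = 0.62 (permutation p = 0.0059, adjusted 0.0275) but a rho of 0.32 that did not pass (permutation adjusted p = 0.307), and r was 0.26 without G45 and G9. The number of passing pairs was 3 without G9 alone or without G49 alone. By Spearman rho 3 further pairs passed, Btg3 with Tob1 in the negative direction (rho = -0.62, permutation adjusted p = 0.0333), Btg1 with Ier2 (rho = 0.61, permutation adjusted p = 0.0334) and Tob2 with Ier2 (rho = 0.57, permutation adjusted p = 0.0477). Ier3 was in no passing pair. The residuals of all pairs share each mouse's library and its normalization.

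**Figure D3:**
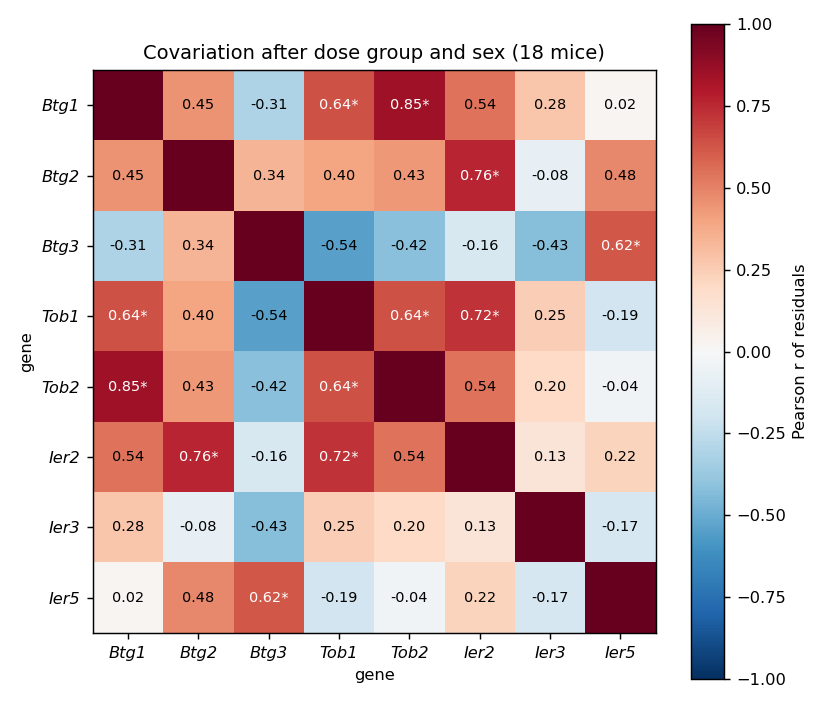
Pearson r between the 8 genes over 18 mice, computed on residuals of log2(CPM + 1) after the dose group and sex means; red is positive, blue negative, and stars mark the 6 pairs with a permutation p under 0.05 after adjustment over 28. The permutation p does not allow for the means removed and tends to be too small. The block of Btg1, Tob1 and Tob2 and the pair of Btg2 and Ier2 are positive, with r of 0.85 for Btg1 and Tob2 and 0.76 for Btg2 and Ier2.

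Single mice show this covariation. Vehicle male G1 had the lowest level of its group for Btg1, Btg2, Tob1, Tob2 and Ier2 and the highest for Btg3 and Ier5. The 125 mg/kg male G45 was lowest of its group for Btg2, Btg3, Ier2 and Ier5. The 250 mg/kg female G49 was highest of its group for Btg1, Tob1, Tob2, Ier2 and Ier3, and lowest for Btg3 and Ier5. Single mice thus departed from their groups in several members at once.

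**Figure D4:**
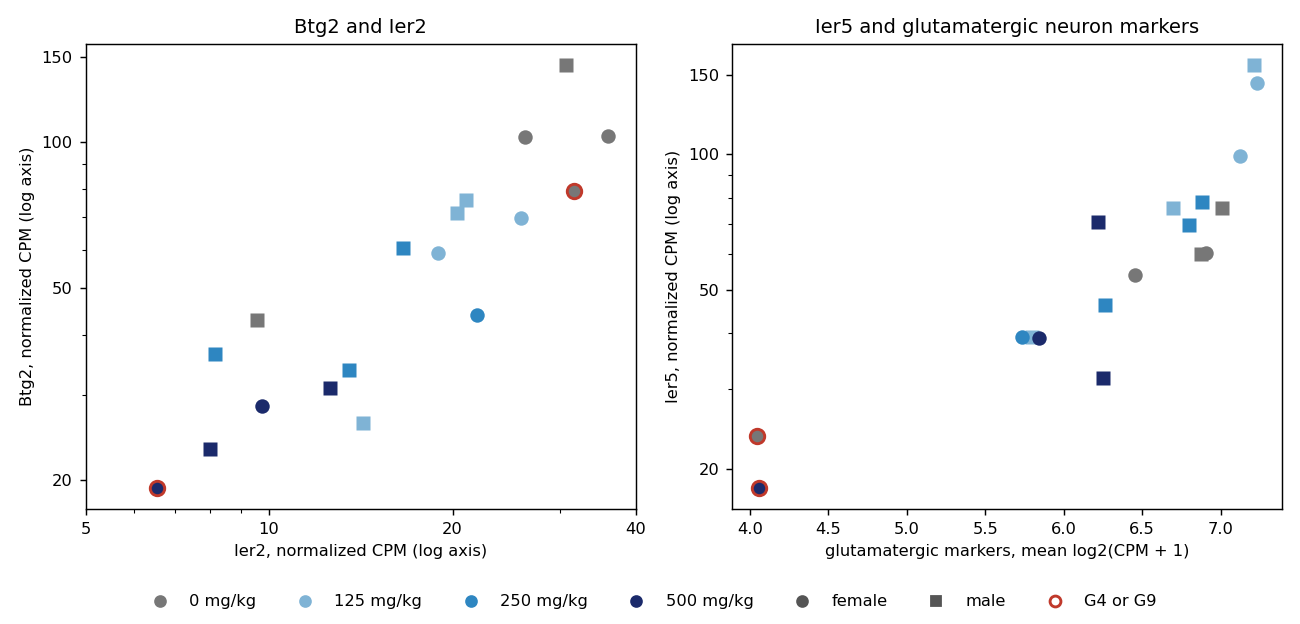
Left, Btg2 against Ier2, both as normalized CPM on log axes, and right, Ier5 as normalized CPM on a log axis against the mean log2(CPM + 1) of 18 glutamatergic neuron markers. Each point is 1 of the 18 mice (circles females, squares males, darker blue for a higher dose, grey for vehicle, G4 and G9 ringed in red). Vehicle mouse G1 sits at 42.8 CPM Btg2 and 9.55 CPM Ier2, near the mice at 250 and 500 mg/kg, and the highest Ier5 value is 158 CPM at 125 mg/kg.

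The genes most like Btg2 and Ier2 over the 18 mice included other early genes, by Pearson r of log2 CPM among 12044 genes with a mean of at least 5 CPM. For Btg2 these were Dusp1 (r = 0.90), Fos (0.89), Ccn1 (0.86), Usp1 (0.78) and Junb (0.76). For Ier2 they were Dusp1 (0.95), Fos (0.91), Ppp1r15a (0.84), Cdk2ap2 (0.83) and H4c12 (0.83). Dusp1 encodes a MAP kinase phosphatase, Fos and Junb encode AP-1 subunits, and Ccn1 encodes a matrix protein induced by growth factors. These r include the dose differences that chose Btg2 and Ier2 and are given without a test.

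Dusp1 averaged 43.7 ± 4.599 CPM at 500 mg/kg and 86.4 ± 24.3 CPM in vehicle mice. Its slope was -0.99 (SE 0.20, edgeR adjusted p = 0.0361), so it was 1 of the 7 falling genes. Fos averaged 36.7 ± 6.396 CPM at 500 mg/kg and 86.7 ± 36.2 CPM in vehicle mice, with a slope of -1.23 (SE 0.27) that did not pass by edgeR (DESeq2 adjusted p = 0.00456). Of 49 other immediate early genes, all tested, 1 fell (Dusp1), 0 rose and 48 did not pass, and 39 had a negative slope. DESeq2 called 3 falling and 1 rising, and 18 (15 of them falling) had an unadjusted p under 0.05, beside 13.2% of all genes. Their median slope was -0.32, beside 0.01 over all genes. Ccn1 had a slope of -1.41 (edgeR adjusted p = 0.0909, DESeq2 adjusted p = 0.0140), while Maff, a small MAF transcription factor, had the opposite sign with 1.17 (edgeR adjusted p = 0.137). The early genes thus did not all share one sign.

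The partners and regulators of the members were counted likewise, and 0 passed in each of the next lists by edgeR. Their counts at an unadjusted p under 0.05 are to be read beside the same 13.2%. Among 18 deadenylation genes, the machinery that BTG/TOB proteins recruit, 12 slopes were negative with a median of -0.06, and Cnot11, a CCR4-NOT subunit, had -0.28 (1 at an unadjusted p under 0.05, 0 by DESeq2). Among 20 tested p53-induced genes the median was 0.06, with 6 at an unadjusted p under 0.05 and 1 by DESeq2. Ddit4, an mTORC1 inhibitor, had 146 ± 28.8 CPM at 500 mg/kg and 81.2 ± 12.5 CPM in vehicle mice, a slope of 0.78 (edgeR adjusted p = 0.0582). Cdkn1a, the cyclin-dependent kinase inhibitor p21, had 33.9 ± 9.15 CPM at 500 mg/kg and 16.7 ± 5.04 CPM in vehicle mice, a slope of 0.98 (edgeR adjusted p = 0.160). Bbc3, the pro-apoptotic protein PUMA, had the opposite sign with -0.91 (edgeR adjusted p = 0.186).

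Among 20 SRF and CREB pathway genes 14 slopes were negative with a median of -0.11 (3 at an unadjusted p under 0.05, 0 by DESeq2), and Elk1, an SRF partner, had -0.61 (edgeR adjusted p = 0.207). The 20 phosphatase and heat shock partners of the IER proteins had a median of 0.00 (2 at an unadjusted p under 0.05, 0 by DESeq2). Of 25 cell cycle genes 22 were tested, with 18 negative slopes, a median of -0.21 and 0 at an unadjusted p under 0.05 or by DESeq2. Ccnd2, the D-type cyclin of progenitors, had a slope of -0.80 (edgeR adjusted p = 0.380). The 14 newborn neuron and progenitor genes had a median of -0.53 with 11 negative (3 at an unadjusted p under 0.05, 0 by DESeq2), and Sox2, a progenitor transcription factor, had -0.63 (edgeR adjusted p = 0.179).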

How the data were processed

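Total RNA libraries, made from 250 ng of RNA with ribosomal RNA depletion and sequenced as 100 bp paired ends, were processed by the authors. They deposited 1 table of raw counts per gene for 18 libraries. The submitters' processing notes name STAR 2.7.5b, featureCounts, DESeq2 1.34.0, MultiQC 1.12 and build GRCm38, and whether counting used strand is not given in the sources used here. Symbols came from RefSeq (25275 of 27179 identifiers matched). Exon lengths came from the GENCODE annotation of the same build.

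Genes were filtered by dose group (minimum count 10, 15863 kept) and scaled by TMM in edgeR 4.0.16 under R 4.3.3. The quasi-likelihood test was fitted over all genes with sex as a covariate, on dose (slope per 500 mg/kg), on dose as a factor, and for sex at equal dose. P-values were adjusted over all tested genes (Benjamini-Hochberg, threshold 0.05) and measure the spread between mice. DESeq2 1.42.0, limma 3.58.1 with voom, other scalings, filters and covariates, and fits without single mice were alternatives. Correlations used 100000 permutations of the residuals, two-sided, in numpy 2.4.6, without allowance for the means removed. The fits were tested on simulated data. Members and lists were chosen with earlier results of these data known. The text names the 8 members, the 5 genes most correlated with Btg2 and with Ier2, and up to 4 genes per list with the smallest p. Replicates carried distinct mouse numbers and gave no pairs. Of 32 pairs of libraries within groups, each differed by more than sampling noise (chi-square per degree of freedom 9.02 to 76.9).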

Additional observations from a re-analysis of the deposited data

How the results depend on the processing

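The slopes of Btg2, Ier2, Tob1 and Tob2 kept their sign in all 31 alternatives run, from -2.18 to -1.59 for Btg2 and from -1.90 to -1.08 for Ier2. The alternatives reuse the mice in which Btg2 and Ier2 were chosen for a falling slope. Their kept sign is therefore no separate support. The 46 genes called on dose, with 2 members, became 29 without a filter, 226 with DESeq2, 27 with dose as a rank, 11 with the glutamatergic marker covariate, 2 without G4 and G9, and 0 in females alone, in males alone, without the 500 mg/kg group or with a replicate block by mouse tag number. Members called were 1 with limma-voom, the rank or the marker covariate, and 0 in the other 5 of these settings that lost calls. Leaving out 1 mouse gave 2 (G4) to 127 (G79) genes and 0 to 2 members. At 125 mg/kg, 1 gene was called with DESeq2 size factors or without a filter, 35 with DESeq2, and 0 to 1 without 1 mouse. At 500 mg/kg, genes called were 9 without a filter, 164 with DESeq2, 1 with only the 2 groups fitted, and 0 to 19 (G45) without 1 mouse, and members were 1 without a filter, 2 with DESeq2 and 0 to 2 (G1) without 1 mouse. For any difference, DESeq2 called 530 genes and 2 members, and leaving out 1 mouse gave 1 (G25) to 22 (G45) genes and 0 to 1 members. DESeq2 called 19 genes between the sexes. Passing pairs of members were 3 without G4 and G9, and 3 to 8 without 1 mouse.

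Signs turned for slopes or differences that had not passed. The slope of Ier3 was 0.0012 without the sex covariate, 0.062 in females alone, 0.13 with the replicate block and -0.13 to 0.13 without 1 mouse. That of Ier5 was 0.36 without the 500 mg/kg group. With the replicate block the slopes of Btg1 and Btg3 were 0.0099 and 0.033. The female minus male difference of Ier5 was 0.054 with the marker covariate, and that of Btg2 was -0.11 to 0.22 without 1 mouse. Each of the 6 tag numbers is shared by 2 or more mice, and 4 of the 6 occur in 1 dose group only. What it marks is not stated, so the number and the dose can be told apart only in part. The cause of these changes was not tested. The limits are 4 or 5 mice a group, 1 female at 250 mg/kg, and 14 to 99 reads per library for Btg3.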
